A study of Mus musculus with 12 samples.

Results

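The tumor necrosis factor (TNF) receptor family was examined in murine embryonic fibroblasts (MEFs) through 10 of its genes, namely Fas, Tnfrsf10b, Eda2r, Tnfrsf1a, Tnfrsf1b, Tnfrsf21, Tnfrsf11b, Tnfrsf12a, Tnfrsf19 and Ngfr. The 10 were chosen with earlier results of these data known, and 13 other measured members of the family are described further on. For each gene, a probe set of the array annotated with its symbol and no other was required. Each of the 10 genes had exactly 1 such probe set, so 10 probe sets of 16755 and 10 genes of 14860 are described. The study asked which genes depend on p21-activated kinase 1 (Pak1), a kinase of cytoskeletal and growth signaling, with and without ionizing radiation (IR). All cells were of the C57Bl6J background, came from embryos at day 13.5 and had been immortalised by the SV40 T antigen, a protein of the virus known to inactivate p53. WT cells carried Pak1 and were left untreated, KO cells came from mice with a whole-body ablation of Pak1 and were left untreated, and WT-IR and KO-IR were the same cells after gamma irradiation from a cesium source. Each group had 3 arrays, 12 in all. Neither the total dose, the time to harvest nor the number of embryos or isolates behind each genotype is given in the sources used here, so genotype and isolate cannot be told apart. The paper lists Eif2s3y, which it calls Y-linked, as well as Ddx3y and Uty among the genes most lowered in KO. A difference in sex or Y content between the cells therefore cannot be told apart from genotype either. Pak1 itself was not analysed here. The study examined PAK1 protein in both genotypes by western blot, and which array belongs to which genotype is taken from the labels.

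TNF family receptors are proteins with cysteine-rich repeats outside the cell, and most of them bind trimeric ligands of the TNF family. Some, the death receptors, carry a death domain through which they recruit adaptors such as FADD and activate caspase-8, while others recruit TRAF proteins and activate NF-kB, and a soluble member acts as a decoy. In fibroblasts they take part in inflammation, matrix turnover and apoptosis after stress, and in human cells FAS, TNFRSF10B and EDA2R are known transcriptional targets of p53.

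The DNA just upstream of 3 of the genes is shown because, of the 10 receptors, Fas and Eda2r had the largest difference between the genotypes in their response to IR, and Tnfrsf21 had the largest difference between untreated genotypes, with a lower signal in KO. The sequences are from RefSeq (GRCm38.p6), 5' to 3' in the direction of transcription, 250 bases that end just before the annotated transcript start. They lie at chr19:34290409-34290658 (plus strand, Fas), chrX:97377210-97377459 (minus strand, Eda2r) and chr17:43016305-43016554 (plus strand, Tnfrsf21). The last bases of the Fas and Eda2r windows fall inside the outermost annotated span of those genes. Capitals mark every match, on either strand, to the AP-1 site TGANTCA, the GC box GGGCGG or the E-box CACGTG, none of which overlap here.
Fas: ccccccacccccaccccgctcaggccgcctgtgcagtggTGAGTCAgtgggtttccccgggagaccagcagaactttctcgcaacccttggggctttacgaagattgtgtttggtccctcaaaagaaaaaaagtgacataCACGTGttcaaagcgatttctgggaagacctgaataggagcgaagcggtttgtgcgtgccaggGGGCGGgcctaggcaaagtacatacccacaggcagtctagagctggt
Eda2r: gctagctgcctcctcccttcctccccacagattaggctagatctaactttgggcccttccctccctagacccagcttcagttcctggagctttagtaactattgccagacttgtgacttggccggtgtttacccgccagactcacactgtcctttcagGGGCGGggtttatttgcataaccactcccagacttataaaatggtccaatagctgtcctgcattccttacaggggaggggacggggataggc
Tnfrsf21: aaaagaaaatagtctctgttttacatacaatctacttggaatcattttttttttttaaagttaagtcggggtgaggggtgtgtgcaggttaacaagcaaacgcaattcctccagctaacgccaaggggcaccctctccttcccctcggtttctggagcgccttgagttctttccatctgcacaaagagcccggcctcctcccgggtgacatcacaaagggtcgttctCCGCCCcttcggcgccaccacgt
A promoter was listed for 8 of the 10 genes, with 9 starts in all, since Tnfrsf19 had a start more than once. Tnfrsf10b and Tnfrsf11b are the others. The GC box was present upstream of 7 of the 9 starts, against 32.7% of 32851 windows of the same length over all genes. The AP-1 site was present at 1 start, that of Fas, against 6.75% of all windows, and the E-box at 2, Fas and 1 start of Tnfrsf19, against 6.02%. The p53 half-site and the NF-kB site, searched on both strands by their consensus, matched 0 of the 9 windows, and 7.13% and 7.25% of all windows held them. The search covered only these 250 bases per start, so 0 matches say nothing of sites elsewhere in or near the genes. A match is a description of the letters, and binding was not measured.

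The values are log2 signals that the authors centred on each probe set's median over the 12 arrays, so a value of 0 is that gene's own median and levels cannot be compared between genes. P-values came from limma over all 16755 probe sets with Benjamini-Hochberg adjustment. A gene is said to have risen or fallen at an adjusted p under 0.05 and to be differentially expressed when the fold change was at least 2 as well. The labels call the arrays biological replicates and say nothing of separate cultures, and a p-value therefore measures only how these arrays spread, which may be technical. Array medians lay between -0.02 and 0.02, and arrays correlated with the others of their group at a mean r of 0.836 to 0.917 over probe sets.

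**Figure D1:**
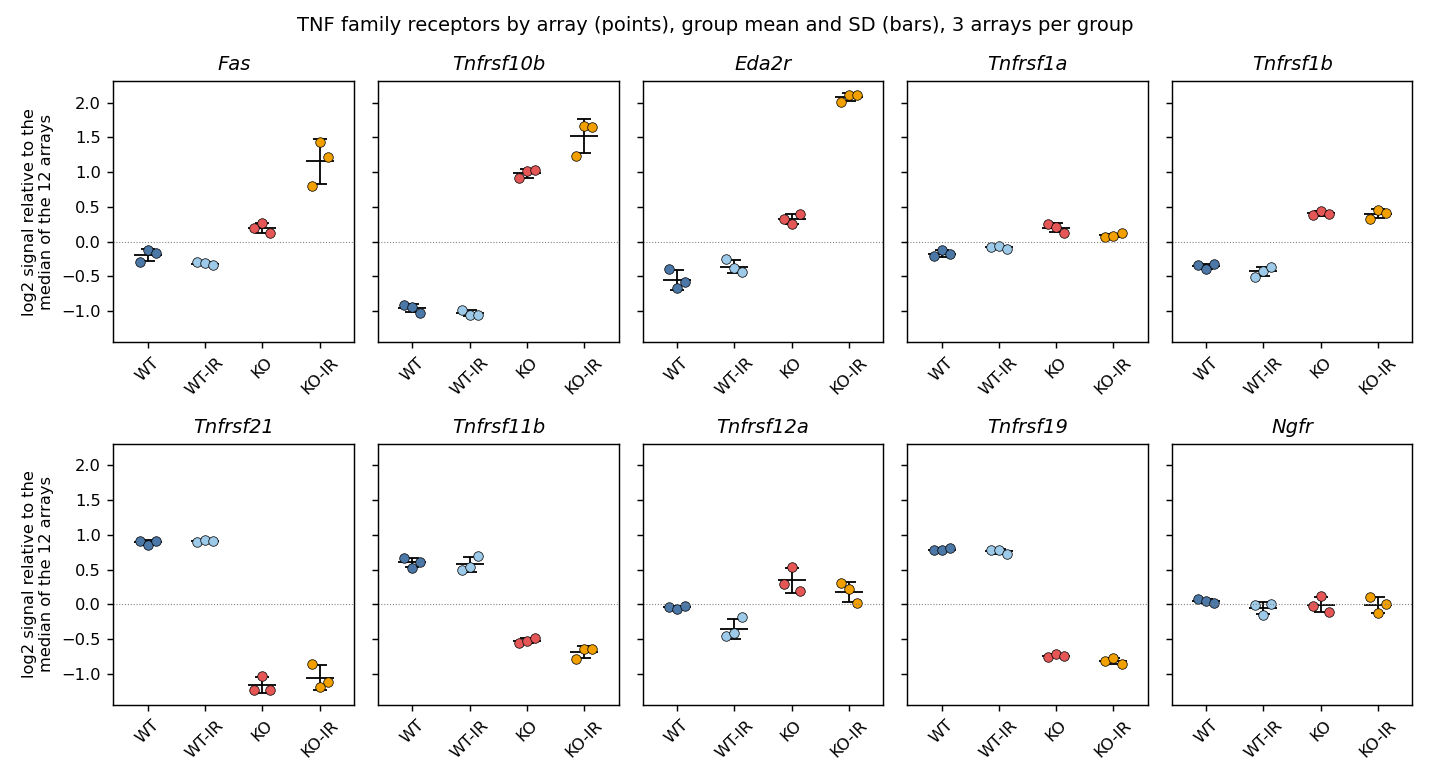
Each panel is 1 receptor gene, the vertical axis is the log2 signal relative to that gene's median over the 12 arrays, points are arrays, and the bars are the group mean and SD (n = 3). Arrays of Pak1-KO and WT cells were fully separated for every receptor but Ngfr. The difference was at least 2-fold with and without IR for Tnfrsf10b, Tnfrsf21, Tnfrsf11b and Tnfrsf19. Fas and Eda2r were highest in the KO-IR arrays, and all arrays of Ngfr lay between -0.16 and 0.11.

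In untreated cells, 9 of the 10 receptors differed between KO and WT MEFs, 6 higher and 3 lower. Over all probe sets 43.2% passed the same test, 21.5% higher and 21.7% lower, so passing was common in this comparison. With the 2-fold threshold 4 receptors were differentially expressed, where 4.42% of all probe sets were. These were Tnfrsf10b, higher in KO like 2.44% of all probe sets, and Tnfrsf21, Tnfrsf11b and Tnfrsf19, lower in KO like 1.98%. The median absolute log2 fold change was 0.82 over the 10 receptors and 0.13 over all probe sets. Since the 10 were chosen with earlier results of these data known, such gaps cannot be read as a trait of the family. This holds for every comparison below as well. Of 13 other measured members of the family, 0 were differentially expressed in KO against WT. In arrays of whole cultures, fewer cells of a type and less RNA per cell cannot be told apart.

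After irradiation of both genotypes, KO-IR against WT-IR, 9 receptors again passed the adjusted p, 6 higher and 3 lower, against 44.6% of all probe sets (23.4% higher and 21.2% lower). Differential expression was reached by 6, against 5.06% of all probe sets. Fas, Tnfrsf10b and Eda2r were higher in KO-IR, as were 2.96% of all probe sets, and Tnfrsf21, Tnfrsf11b and Tnfrsf19 were lower, as were 2.09%. The median absolute log2 fold change of the receptors was 1.37, and that of all probe sets was 0.13. In both genotype comparisons the arrays of the groups did not overlap for 9 receptors, which was also true of 51.1% of all probe sets in KO against WT and of 51.8% in KO-IR against WT-IR.

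**Figure D2:**
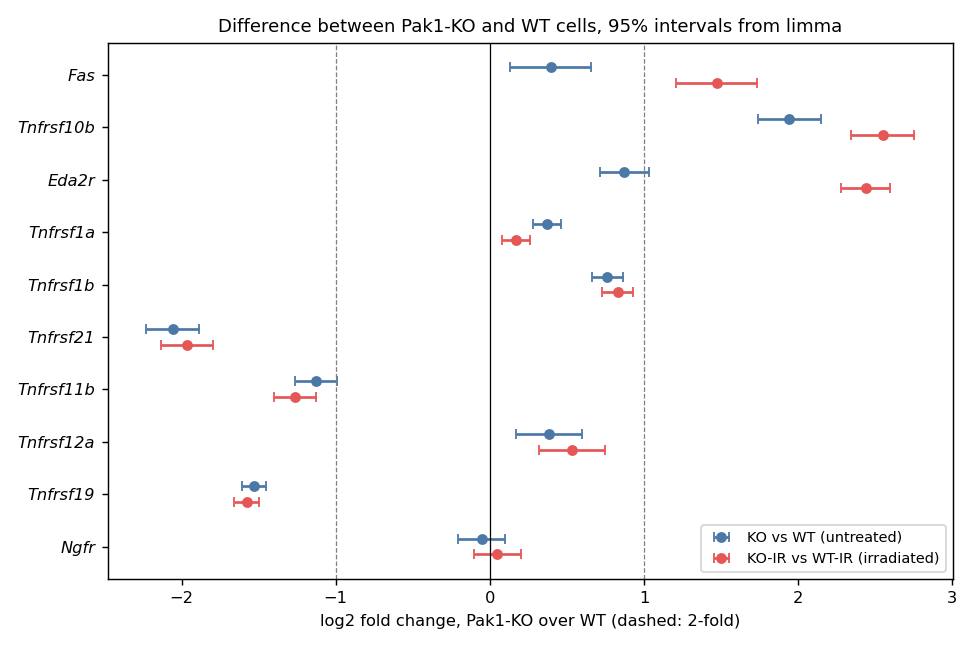
Points are log2 fold changes of Pak1-KO over WT cells, without (blue) and with (red) irradiation, with 95% confidence intervals from limma, and dashed lines mark a 2-fold difference. The 2 intervals of Fas and of Eda2r are far apart, those of Tnfrsf21, Tnfrsf11b and Tnfrsf19 lie left of 0, and those of Ngfr include 0.

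Few of these genes passed the test for a change after irradiation. In WT-IR against WT 0 of the 10 receptors passed the adjusted p in limma, where 2.48% of all probe sets did, and 3 (Eda2r, Tnfrsf1a and Tnfrsf12a) had an unadjusted p under 0.05. With the 2-fold threshold 0 receptors and 0.00597% of all probe sets passed. At the adjusted p alone the methods' t-test also passed 0 receptors, with adjusted p from 0.202 to 0.858. In KO-IR against KO 3 receptors rose, Fas, Tnfrsf10b and Eda2r, and 0 fell, where 6.3% of all probe sets passed in either direction, 3.38% higher and 2.92% lower. By the methods' t-test Eda2r alone passed (adjusted p = 0.0108), and Fas (0.179) and Tnfrsf10b (0.267) did not. Eda2r alone was also differentially expressed, against 0.143% of all probe sets. The interaction, which tests whether the change after IR differed between the genotypes, passed for 2 receptors, Fas and Eda2r, both positive, where 1.37% of all probe sets passed and 1.17% were positive. Both interactions were at least 2-fold, which 0.149% of all probe sets reached, 0.143% with a positive and 0.00597% with a negative sign. The comparisons share arrays (KO enters both KO against WT and KO-IR against KO, for example), so their values stand side by side and are not independent of each other.

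**Figure D3:**
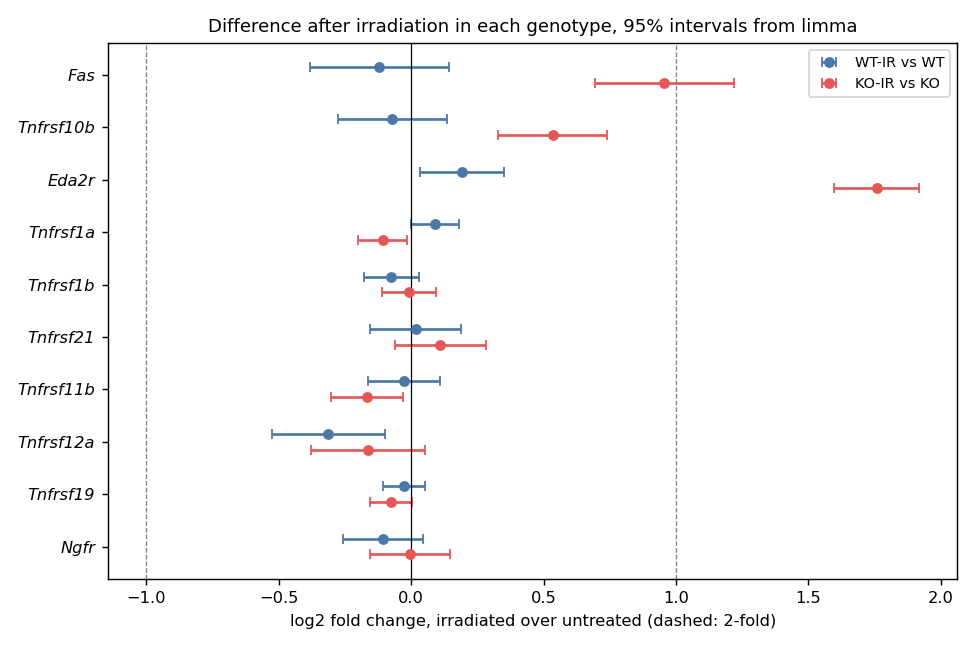
Points are log2 fold changes of irradiated over untreated cells, in WT (blue) and in KO cells (red), with 95% confidence intervals from limma. The KO intervals of Fas, Tnfrsf10b and Eda2r lie above 0 and clear of the WT intervals, and the other receptors lie between -0.31 and 0.11 in both genotypes.

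Fas is the receptor of Fas ligand and the prototype death receptor. The 3 WT arrays gave log2 values of -0.29, -0.13 and -0.17, and the 3 WT-IR arrays gave -0.30, -0.31 and -0.34. The KO arrays were at 0.20, 0.27 and 0.13, and the KO-IR arrays at 0.81, 1.44 and 1.22. Every KO array was above every WT array, every KO-IR array was above every KO array, and replicate 1 was the lowest of the KO-IR arrays. Between untreated genotypes the difference was small, with a log2 fold change of 0.39 (95% interval 0.13 to 0.66, adjusted p = 0.0180), and it missed the threshold without WT replicate 1 (0.35, adjusted p = 0.0676) or KO replicate 2 (0.36, adjusted p = 0.0595). Over the 13 alternatives its adjusted p ran from 0.00105 to 0.0676. Between irradiated genotypes it was 1.47 (1.21 to 1.73, adjusted p = 6.70e-07), a 2.77-fold higher signal in KO-IR.

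Within KO cells Fas rose 1.94-fold after IR, a log2 fold change of 0.96 (0.69 to 1.22, adjusted p = 0.000602), just under the 2-fold threshold, and the methods' t-test on those 6 arrays gave an adjusted p of 0.179 (6.92e-06 to 0.179 over the 13 alternatives). By absolute change it ranked 27 of 16755 probe sets in this comparison. Within WT cells the log2 fold change was -0.12 (-0.38 to 0.14, adjusted p = 0.641), although the arrays did not overlap, the highest WT-IR array lying just below the lowest WT array. The 2 responses differed by 1.08 (0.70 to 1.45, adjusted p = 0.00792). By level the groups stood in the order WT-IR, WT, KO, KO-IR, and of these neighbours only WT-IR and WT did not differ in the test.

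Tnfrsf10b encodes the mouse TRAIL receptor, also called DR5, which signals through a death domain. Its WT arrays were at -0.91, -0.94 and -1.03 and its WT-IR arrays at -0.98, -1.05 and -1.05. The KO arrays were at 0.91, 1.02 and 1.02 and the KO-IR arrays at 1.24, 1.67 and 1.65. All 6 arrays of Pak1-KO cells lay above all 6 of WT cells, and every KO-IR array lay above every KO array. The genotype difference was 3.85-fold without IR, a log2 fold change of 1.94 (1.74 to 2.15, adjusted p = 7.75e-09), and 5.85-fold with IR, at 2.55 (2.34 to 2.75, adjusted p = 6.36e-10).

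The rise of Tnfrsf10b within KO cells was 1.45-fold, a log2 fold change of 0.53 (0.33 to 0.74, adjusted p = 0.00576). The methods' t-test put it at an adjusted p of 0.267, and limma on the KO and KO-IR arrays alone at 0.0612, and quantile normalization lowered the log2 fold change to 0.28 (adjusted p = 0.0227), the 13 alternatives ranging from 3.04e-05 to 0.267. In WT cells the change was -0.07 (-0.28 to 0.13, adjusted p = 0.735). The interaction of 0.61 (0.32 to 0.90) lay near the threshold at an adjusted p of 0.0522. It passed when only probe sets of 1 symbol were tested (adjusted p = 0.0463) and without KO-IR replicate 1, at 0.75 (adjusted p = 0.000245). After quantile normalization it was 0.31, with the highest adjusted p of 17 alternatives, 0.155. The order of the group means was WT-IR, WT, KO, KO-IR, with the first pair not distinguished.

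Eda2r encodes XEDAR, the receptor of the A2 form of ectodysplasin, which signals through TRAF proteins and has no death domain. It lies on the X chromosome. The WT arrays were at -0.40, -0.68 and -0.58 and the WT-IR arrays at -0.25, -0.39 and -0.44, so these groups overlapped. The KO arrays were at 0.32, 0.25 and 0.39 and the KO-IR arrays at 2.01, 2.12 and 2.11, with a wide gap between KO and KO-IR. Without IR Eda2r was 1.83-fold higher in KO cells, a log2 fold change of 0.87 (0.71 to 1.03, adjusted p = 9.18e-07), and with IR it was 5.43-fold higher, at 2.44 (2.28 to 2.60, adjusted p = 1.02e-10).

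Among the receptors Eda2r had the largest response to IR in KO cells, 3.38-fold, with a log2 fold change of 1.76 (1.60 to 1.92, adjusted p = 9.47e-08). Its rank by absolute change was 6 among all probe sets. In WT cells the log2 fold change was 0.19 (0.03 to 0.35), with an unadjusted p of 0.0228 and an adjusted p of 0.199. The interaction was 1.57 (1.34 to 1.79, adjusted p = 8.88e-06), rank 10 among all probe sets by size. The means followed the order WT, WT-IR, KO, KO-IR, of which WT and WT-IR did not differ at the adjusted threshold.

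**Figure D4:**
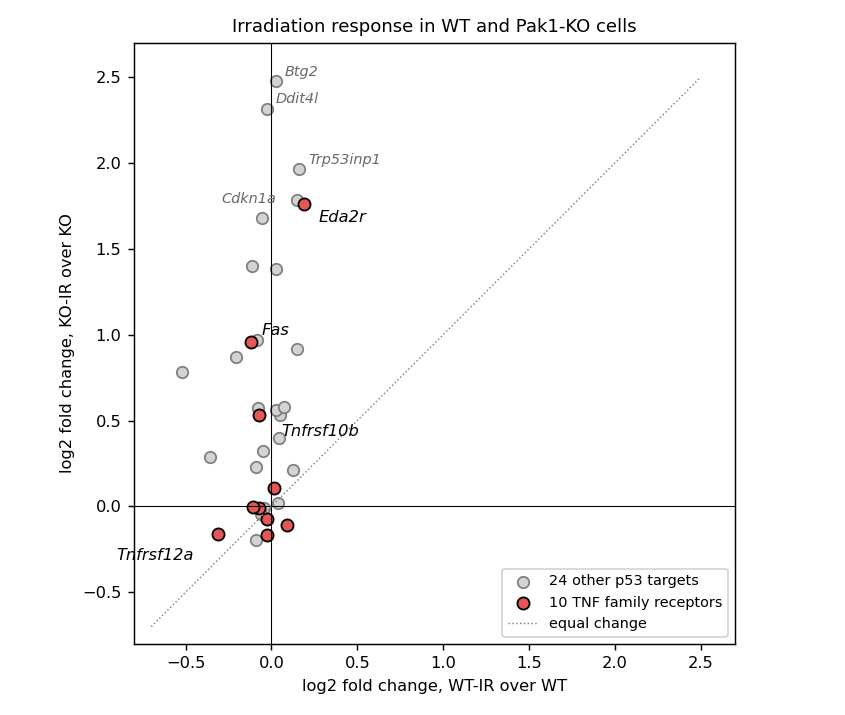
The horizontal axis is the log2 fold change after IR in WT cells and the vertical axis that in KO cells, for the 10 receptors (red) and 24 measured p53 targets outside the family (grey), and the dotted line marks equal change. Eda2r (0.19 in WT, 1.76 in KO), Fas (-0.12, 0.96) and Tnfrsf10b (-0.07, 0.53) lie above the line near the vertical axis, as do Cdkn1a, Trp53inp1, Btg2 and Ddit4l, and the other receptors lie near the origin.

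Tnfrsf1a and Tnfrsf1b encode the receptors of TNF itself. Tnfrsf1a, the broadly expressed receptor with a death domain, was at -0.21, -0.12 and -0.18 in WT, -0.07, -0.06 and -0.11 in WT-IR, 0.25, 0.22 and 0.12 in KO, and 0.06, 0.09 and 0.12 in KO-IR. Its WT and WT-IR arrays were all below 0 and its KO and KO-IR arrays all above. The gene was 1.29-fold higher in KO than in WT cells (log2 fold change 0.37, adjusted p = 1.22e-05) and 1.13-fold higher in KO-IR than in WT-IR (0.17, adjusted p = 0.00454). The interaction was -0.20 (-0.33 to -0.07), with an unadjusted p of 0.00575 and an adjusted p of 0.181.

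Tnfrsf1b, which has no death domain and signals through TRAF2, was higher in KO cells by a larger margin. The values were -0.34, -0.40 and -0.32 in WT and -0.50, -0.42 and -0.37 in WT-IR, against 0.38, 0.45 and 0.39 in KO and 0.32, 0.45 and 0.42 in KO-IR. No array of Pak1-KO cells overlapped an array of WT cells, and the irradiated and untreated arrays of each genotype did overlap. KO exceeded WT 1.70-fold (log2 fold change 0.76, 0.66 to 0.87, adjusted p = 6.29e-08), and KO-IR exceeded WT-IR 1.78-fold (0.83, 0.73 to 0.93, adjusted p = 2.69e-08). Neither change after IR passed, at -0.07 in WT (adjusted p = 0.437) and -0.01 in KO (adjusted p = 0.958).

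Tnfrsf21, or DR6, is a death receptor studied in neurons and lymphocytes, and its signal was lower in Pak1-KO cells. WT arrays were at 0.92, 0.85 and 0.91 and WT-IR arrays at 0.90, 0.93 and 0.91, while KO arrays were at -1.23, -1.03 and -1.23 and KO-IR arrays at -0.85, -1.19 and -1.12. The genotypes were separated by more than any spread within a group. KO was 4.16-fold below WT, a log2 fold change of -2.06 (-2.23 to -1.89, adjusted p = 1.02e-09), and KO-IR was 3.90-fold below WT-IR, at -1.96 (-2.14 to -1.79, adjusted p = 1.32e-09). After IR the change was 0.02 in WT (-0.15 to 0.19) and 0.11 in KO (-0.06 to 0.28), with adjusted p of 0.933 and 0.523.

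Tnfrsf19, called TROY, is a receptor of progenitor cells that lacks a death domain and is known as a Wnt target and as a co-receptor for myelin inhibitors in neurons. Of the 10 receptors it had the smallest standard error of the fit, 0.036. The WT arrays were at 0.77, 0.78 and 0.81 and the WT-IR arrays at 0.78, 0.78 and 0.72, against -0.77, -0.72 and -0.74 in KO and -0.82, -0.78 and -0.85 in KO-IR. The SD within a group was 0.02 to 0.04, and the 6 arrays of each genotype formed a narrow band. Pak1-KO cells were 2.89-fold lower without IR (log2 fold change -1.53, -1.61 to -1.45, adjusted p = 1.66e-11) and 2.99-fold lower with IR (-1.58, -1.66 to -1.50, adjusted p = 1.03e-11). The change after IR was -0.03 (adjusted p = 0.727) in WT and -0.08 (adjusted p = 0.284) in KO cells.

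Tnfrsf11b encodes osteoprotegerin, the soluble decoy that binds RANK ligand and TRAIL and restrains osteoclast formation. It was at 0.67, 0.53 and 0.62 in WT and 0.49, 0.54 and 0.70 in WT-IR, and at -0.56, -0.52 and -0.49 in KO and -0.79, -0.64 and -0.64 in KO-IR. WT and WT-IR overlapped, KO-IR lay below KO in every array, and all arrays of Pak1-KO cells lay below all of WT cells. The Tnfrsf11b signal was 2.18-fold lower in KO cells (log2 fold change -1.13, -1.26 to -0.99, adjusted p = 2.32e-08) and 2.40-fold lower in KO-IR (-1.26, -1.40 to -1.13, adjusted p = 7.51e-09). The step from KO to KO-IR was -0.17 (-0.30 to -0.03), with an unadjusted p of 0.0204 and an adjusted p of 0.156.

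Tnfrsf12a encodes Fn14, the receptor of TWEAK (Tnfsf12), which is inducible in injured tissue. The WT arrays lay close together at -0.04, -0.06 and -0.02, and the WT-IR arrays were lower at -0.46, -0.42 and -0.19. KO arrays spread over 0.30, 0.54 and 0.19 and KO-IR arrays over 0.30, 0.22 and 0.02, and these groups overlapped. The Tnfrsf12a signal was 1.31-fold higher in KO than in WT cells (log2 fold change 0.39, adjusted p = 0.00619, and 0.0573 by the methods' t-test). It was 1.45-fold higher in KO-IR than in WT-IR (0.54, adjusted p = 0.000602). In WT cells after IR it was at -0.31 (-0.53 to -0.10), with an unadjusted p of 0.00797 and an adjusted p of 0.119, and in KO cells at -0.16 (adjusted p = 0.423).

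Ngfr encodes p75NTR, the low-affinity neurotrophin receptor of neurons, Schwann cells and some mesenchymal cells. It was at 0.07, 0.05 and 0.02 in WT, -0.02, 0.11 and -0.11 in KO, -0.01, -0.16 and -0.00 in WT-IR and 0.10, -0.13 and 0.00 in KO-IR. It was the 1 receptor of the 10 that passed in no comparison, and only its WT and WT-IR arrays did not overlap. The log2 fold change was -0.05 (-0.20 to 0.10) for KO against WT and 0.05 (-0.10 to 0.20) for KO-IR against WT-IR, which leaves room for a difference of up to 1.15-fold in irradiated cells at the 95% level. After IR the arrays did not overlap for 4 receptors in WT cells (Fas, Tnfrsf1a, Tnfrsf12a and Ngfr), against 28.6% of all probe sets, and for 6 in KO cells (Fas, Tnfrsf10b, Eda2r, Tnfrsf1a, Tnfrsf11b and Tnfrsf19), against 20.4%.

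The receptors were also compared with one another by their pattern over the 12 arrays, as a description, since the arrays fall into 2 genotypes and any pair of genes that differ between them correlates. Fas and Eda2r had a Pearson r of 0.961, and Tnfrsf10b had 0.884 with Fas and 0.881 with Eda2r. Tnfrsf10b was closer to Tnfrsf1b (0.978), and it had stronger inverse values with Tnfrsf19 (-0.985), Tnfrsf11b (-0.982) and Tnfrsf21 (-0.977). Tnfrsf21 and Tnfrsf19 had 0.993. Among all genes the pattern most like Fas was that of Vnn1, a pantetheinase (r = 0.983), followed by Tbc1d8 (0.983) and Ddias, a suppressor of apoptosis after DNA damage (0.979). Their log2 fold changes in KO-IR against WT-IR were 1.59, 1.41 and 1.59, near the 1.47 of Fas. Closest to Eda2r were Mybl1, a MYB family transcription factor (0.993), Dennd2c (0.993) and Hyal1, a hyaluronidase (0.992), at 2.18, 1.68 and 1.93.

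For the receptors differentially expressed in both genotype comparisons, the nearest genes differed between the genotypes in the same direction. Nearest to Tnfrsf10b were Chst15, a chondroitin sulfotransferase, Cryab, a small heat shock protein, and Pnp, a purine nucleoside phosphorylase, each at r = 0.996. Tnfrsf21 was followed most closely by Dmpk (0.998), the myotonic dystrophy kinase, Thbs2 (0.998), a matricellular thrombospondin, and Tafa5 (0.997), a secreted protein. Beside Tnfrsf19 stood Arhgef7 (0.999), the exchange factor also called beta-Pix, Ank3 (0.999) and Prrx1 (0.999), a homeobox factor of mesenchyme. Tnfrsf11b went with Fndc4 (0.995), Mri1 (0.995) and Myc (0.994), whose log2 fold change in KO-IR against WT-IR was -1.10 beside -1.26 for Tnfrsf11b.

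Lists of genes around the receptors are described by their counts and median log2 fold changes, and all values given for their genes are log2 fold changes from limma. Over all probe sets the median was -0.02 in KO against WT, 0.01 in KO-IR against WT-IR, -0.03 in WT-IR against WT, -0.00 in KO-IR against KO and 0.02 in the interaction, and the shares that passed were 43.2%, 44.6%, 2.48%, 6.3% and 1.37%. Other members of the receptor family differed little. Of 18 listed, 13 were measured, and none was differentially expressed in any comparison. In KO against WT 0 rose and 2 fell, Tnfrsf9, the costimulatory receptor 4-1BB (log2 fold change -0.49, adjusted p = 4.18e-05), and Relt (-0.19, adjusted p = 0.00543). In KO-IR against WT-IR Tnfrsf9 was at -0.39 (adjusted p = 0.000216) and Tnfrsf11a, the receptor RANK, rose by 0.16 (adjusted p = 0.0446). After IR 0 passed in either genotype, and the median log2 fold change of these 13 genes stayed between -0.03 and 0.05 in the 5 comparisons.

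The ligands of the family were measured for 16 of 18 genes, none of which reached a 2-fold difference, and their median log2 fold change was -0.01 in KO against WT and 0.02 in KO-IR against WT-IR. In KO against WT 1 rose and 3 fell, and in KO-IR against WT-IR 1 rose and 1 fell. Tnfsf15, the ligand TL1A, was higher in KO (0.45, adjusted p = 0.000129) and in KO-IR (0.49, adjusted p = 6.72e-05). Tnfsf9, which binds 4-1BB, was lower in both (-0.33, adjusted p = 0.000925, and -0.43, adjusted p = 0.000109). The ligands of the 3 receptors that rose in irradiated KO cells were named after their values had been seen. In KO-IR against WT-IR, Fasl, which binds Fas, was at 0.04 (adjusted p = 0.480), Tnfsf10, which encodes TRAIL, at 0.02 (adjusted p = 0.759), and Eda, whose product includes the ligand of XEDAR, at -0.17 (adjusted p = 0.0546). In KO against WT Eda passed at -0.22 (adjusted p = 0.0210), and Fasl (0.01, adjusted p = 0.839) and Tnfsf10 (0.05, adjusted p = 0.478) did not. Neurotrophins and their receptors, the partners of p75NTR, were measured for 7 of 11 genes. In KO against WT 0 rose and 2 fell, and in KO-IR against WT-IR 1 rose and 3 fell. Ntrk3, the NT-3 receptor, was at -0.26 (adjusted p = 0.00119) in the former and -0.24 (adjusted p = 0.00186) in the latter. Sorcs2, a co-receptor of p75NTR, was at -0.20 (adjusted p = 0.00726) and -0.17 (adjusted p = 0.0167). The interactions of Ntrk3 (0.02) and Sorcs2 (0.03) did not pass. Ntf5, neurotrophin-4, rose by 0.17 in KO-IR against WT-IR (adjusted p = 0.0485). Bdnf, a neurotrophin, fell after IR in KO cells (-0.30, adjusted p = 0.00128), with an interaction of -0.31 (adjusted p = 0.0274).

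Of 32 genes for the adaptors and death signaling proteins that receptors recruit inside the cell, RNA was measured for 25. In KO against WT 11 rose and 7 fell, the same counts as in KO-IR against WT-IR, with median log2 fold changes of 0.05 and 0.18. Birc3, the inhibitor of apoptosis cIAP2, rose in KO (1.32, adjusted p = 2.84e-07) and in KO-IR (1.14, adjusted p = 9.32e-07), and Ikbkg, the NEMO subunit of the IkB kinase, rose in both as well (1.06, adjusted p = 2.86e-09, and 1.13, adjusted p = 1.40e-09). Cflar, which encodes the caspase-8 inhibitor FLIP, was 0.64 higher in KO (adjusted p = 8.65e-05) and 1.01 higher in KO-IR (adjusted p = 1.44e-06). It fell in WT cells after IR (-0.53, adjusted p = 0.0105), and its interaction of 0.38 did not pass (adjusted p = 0.265). Cyld, a deubiquitinase that restrains NF-kB, fell by 0.95 in both genotype comparisons (adjusted p = 4.55e-08 and 3.97e-08). After IR alone few of this list moved, with 0 up and 2 down in WT cells and 2 up and 2 down in KO cells. The interaction passed for 1 of the 25, Traf4, at 0.61 (adjusted p = 0.0166). Traf4 rose in KO cells after IR (0.46, adjusted p = 0.00403) and was at -0.15 in WT cells (adjusted p = 0.342).

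Genes that respond to NF-kB were measured for 25 of 27, and between the genotypes they did not move in 1 direction. In KO against WT 10 rose and 10 fell, and in KO-IR against WT-IR 13 rose and 7 fell, with median log2 fold changes of 0.03 and 0.27. The chemokine Cxcl10 was 2.84 higher in KO (adjusted p = 8.48e-11) and 3.67 higher in KO-IR (adjusted p = 9.45e-12), and Ptgs2, the inducible cyclooxygenase, was 1.79 and 1.55 higher (adjusted p = 5.94e-10 and 1.87e-09). The neutrophil chemokines Cxcl1 (-2.71 and -2.53, adjusted p = 3.53e-10 and 5.57e-10) and Cxcl5 (-1.58 and -2.07, adjusted p = 7.67e-11 and 7.55e-12) were lower. After IR 2 rose and 1 fell in WT cells, and 7 rose and 1 fell in KO cells. The interaction passed for 4 with a positive and 1 with a negative sign, where 1.37% of all probe sets passed. Cxcl10 had an interaction of 0.83 (adjusted p = 0.00333) and Cxcl5 one of -0.49 (adjusted p = 0.00197). Those of Ptgs2 and Cxcl1 did not pass.

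Known p53 targets outside the family were measured for 24 of 28 genes, and most of them rose in irradiated KO cells. In KO against WT 17 rose and 4 fell, in KO-IR against WT-IR 21 rose and 3 fell, in WT-IR against WT 0 rose and 3 fell, and in KO-IR against KO 18 rose and 1 fell. The interaction passed for 16, all higher. The median log2 fold changes in those 5 comparisons were 0.58, 1.49, -0.04, 0.58 and 0.65. Cdkn1a, the p21 cell cycle inhibitor, had an interaction of 1.64 (adjusted p = 3.73e-05), and Btg2, an antiproliferative gene, had 2.45 (adjusted p = 1.20e-08), beside 1.57 for Eda2r and 1.08 for Fas. Ddit4l, a stress inhibitor of mTOR signaling, and Trp53inp1, a cofactor of p53, were 3.84 and 4.60 higher in KO-IR than in WT-IR (adjusted p = 1.06e-11 and 1.66e-12). The study chose several of these genes, and Eda2r, on these samples, so the direction of the list is not independent evidence.

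**Figure D5:**
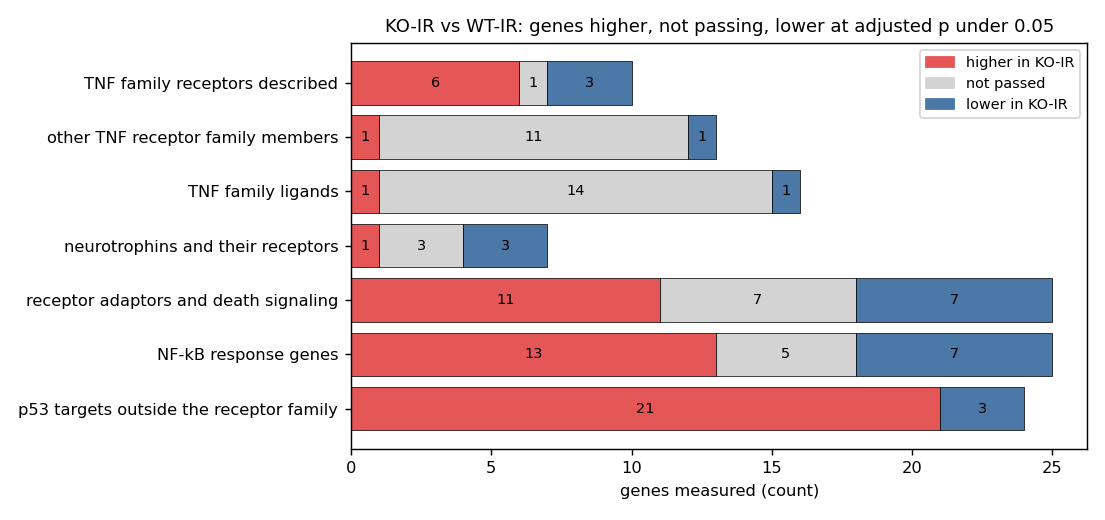
Bars count the measured genes of each list that were higher (red), did not pass (grey) or were lower (blue) at an adjusted p under 0.05 in KO-IR against WT-IR. Of the receptors 6 were higher and 3 lower, of the ligands 1 and 1, and of the p53 targets outside the family 21 and 3.

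Marker lists of cell types were examined in KO against WT, where 43.2% of all probe sets passed, and the values carry no absolute level by which the presence of a marker could be read. Genes of this paragraph were named after their values had been seen. Of 13 fibroblast markers 4 rose and 5 fell in KO against WT, among them Pdgfra (-2.33) and Thy1 (1.29), with a list median log2 fold change of 0.01. The mean log2 value of the list per array was 0.04 to 0.10 in WT, 0.06 to 0.07 in WT-IR, -0.07 to -0.02 in KO and -0.16 to -0.14 in KO-IR. Of 8 macrophage markers 7 were measured, 1 rose (Cd14, 0.41) and 1 fell (Csf1r, -2.26). The other 5 lay between -0.04 and -0.01, and the list median was -0.03. The mean log2 value of the macrophage list, to which Csf1r contributed most, was 0.11 to 0.18 in WT, 0.10 to 0.14 in WT-IR, -0.15 to -0.13 in KO and -0.10 to -0.08 in KO-IR. Of 8 neural and Schwann cell markers 5 were measured, 1 rose (Erbb3, 1.76) and 1 fell (Map2, -0.50). The list median was -0.06, opposite in sign to the difference of the means, since Erbb3 was the only one of the 5 above 0. Those means were -0.13 to -0.06 in WT, -0.21 to -0.11 in WT-IR, 0.09 to 0.12 in KO and 0.12 to 0.17 in KO-IR. Of 7 endothelial markers and 6 measured of 7 epithelial markers 1 each rose and 0 fell, with list medians of -0.00 and -0.07 and array means between -0.03 and 0.11. The part of these differences in the receptor values was not tested.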

How the data were processed

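RNA of 12 samples in 4 groups of 3 was extracted with TRIzol, reduced in ribosomal RNA, labelled with biotin and hybridised to Affymetrix Mouse Exon 1.0 ST arrays. Normalization was done by the authors in Gene Spring GX, and the log2 values they deposited are centred on each probe set's median over the arrays (largest distance of a median from 0, 5e-07; values from -3.30 to 3.37). How the signals were summarised before that is not given in the sources used here. Of 16755 probe sets 14996 carried 1 gene symbol, 1019 several and 740 none.

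limma 3.58.1 (lmFit and eBayes, under R 4.3.3) was fitted to all probe sets with a mean for each of the 4 groups, which left 8 residual beside 3.48 prior degrees of freedom. P-values were adjusted by Benjamini-Hochberg within each contrast, with the authors' thresholds of 0.05 and 2-fold. The authors used an unpaired t-test, which was run as an alternative. The fit was tested on simulated data. Intervals are at the 95% level, and the number of arrays limits their precision. Plots were made with matplotlib 3.10.9 (Python 3.11.15).

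The receptors and the gene lists (other receptors, ligands, neurotrophins, adaptors and death signaling, NF-kB response, p53 targets, and markers of fibroblasts, macrophages, endothelium, epithelium and neural and Schwann cells) were chosen with earlier results of these data known. Named were every receptor, the 4 genes of each list, markers apart, with the largest absolute log2 fold change among those that passed in KO-IR against WT-IR, and the 3 genes nearest by Pearson r to each receptor called in any contrast. Other genes named in the text, such as Relt, were chosen after their values were seen. Alternatives were the t-test, limma on only the groups compared, the replicate number as a block, arrays centred on their medians, quantile normalization, robust eBayes, other fold thresholds, probe sets of 1 symbol only, and each array left out in turn.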

Additional observations from a re-analysis of the deposited data

Results flagged for a closer look

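The response to IR differed between the genotypes for 2 receptors by the interaction test of limma with Benjamini-Hochberg adjustment. The interaction of Fas was 1.08 on the log2 scale (adjusted p = 0.00792), with 3 of 3 KO-IR arrays above every KO array. That of Eda2r was 1.57 (adjusted p = 8.88e-06), with 3 of 3 KO-IR arrays above every KO array as well. Groups of 3 arrays were not tested for outlying arrays.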

How the results depend on the processing

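Of 690 alternative fits of the 50 results of single receptors, 669 kept direction and side of the threshold. The t-test, limma on only the groups compared, the replicate block, robust eBayes and probe sets of 1 symbol leave the log2 fold change unchanged. Direction could not turn in those fits, and only the adjusted p could differ. Differentially expressed receptors numbered 4 in KO against WT, where 4.42% of all probe sets were. At 1.5-fold they numbered 6, beside 2094 of 16755 probe sets, and with no fold threshold 9, beside 43.2%. In KO-IR against KO they numbered 1, Eda2r, against 0.143% of all probe sets. Fas (1.94-fold) joined it at a threshold of 1.5-fold, and 3 receptors passed with no fold threshold, against 6.3%. In the interaction the differentially expressed receptors numbered 2, against 0.149% of all probe sets, or 1 after quantile normalization, where Fas was at 0.81. Leaving out each array of the groups compared gave 4 to 4 in KO against WT, 6 to 6 in KO-IR against WT-IR, 0 to 0 in WT-IR against WT, 1 to 2 in KO-IR against KO (2 without KO-IR replicate 1, where Fas was at 1.13) and 1 to 2 in the interaction (1 without KO-IR replicate 2, where Fas was at 0.93). The Tnfrsf10b interaction passed with probe sets of 1 symbol only (adjusted p = 0.0463), and its adjusted p ran from 0.000245 to 0.150 without single arrays.

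Directions turned only where no test passed. After quantile normalization this held for Ngfr in KO-IR against KO (0.0031) and for the interactions of Tnfrsf1b (-0.0063) and Tnfrsf19 (0.00048). Without single arrays Ngfr ran from -0.0043 to 0.11 in KO-IR against WT-IR and from -0.057 to 0.056 in KO-IR against KO, Tnfrsf11b from -0.090 to 0.014 and Tnfrsf21 from -0.0015 to 0.029 in WT-IR against WT, Tnfrsf1b from -0.035 to 0.027 in KO-IR against KO, and the Tnfrsf21 interaction from -0.0076 to 0.16. The causes were not tested.

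With the replicate number as a block the counts of differentially expressed receptors were 4, 6, 0, 1 and 2 in the 5 comparisons, the same as without it. Deviations of arrays with the same number correlated at -0.14 to 0.21, so the numbers were not taken to pair the arrays. Over all probe sets those that passed in KO-IR against KO numbered 1056, or 100 by the methods' t-test and 447 with only the groups compared, and in WT-IR against WT 416, or 1 by the t-test. With 2-fold or more, quantile normalization left 13 in place of 24 in KO-IR against KO and 14 in place of 25 in the interaction. A filter on dim probe sets was not run, as the values hold no absolute signal.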
